A study of Danio rerio with 24 samples.

Results

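The transcripts described here are those encoded by the mitochondrial genome of the zebrafish, Danio rerio. Members were the rows of the count files whose symbol starts with mt-, in capitals or not, or whose gene the RefSeq annotation places on the mitochondrial genome. The annotation lists 37 such genes, of which 13 code for proteins, 2 for ribosomal RNAs and 22 for transfer RNAs. All 13 protein genes were matched to a row, 13 of 32105 gene rows in all; the names table writes them in capitals, such as MT-ND6 for mt-nd6. The 24 ribosomal and transfer RNA genes carried no Ensembl ID in the tables used and are not analysed here.

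The libraries came from zebrafish given either the solvent DMSO or PCB126 during embryonic life and then kept in clean water. PCB126 is a polychlorinated biphenyl with dioxin-like action, an agonist of the aryl hydrocarbon receptor. There were 24 libraries in 8 groups of 3. Whole embryos at 48 hours post-fertilization (hpf) had received DMSO or 0.3 nM PCB126. Whole larvae at 5 days post-fertilization (dpf) and brains of adults at 4 months had each received DMSO, 0.3 nM or 1.2 nM. The series text calls the 3 libraries of a group biological replicates; the labels give neither strain, sex nor the number of fish per library. Libraries were made from total RNA after removal of ribosomal RNA and read with strand information, and brain RNA was extracted by another method than that of embryos and larvae.

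The vertebrate mitochondrial genome is a small circle present in many copies per cell, and its protein genes all encode subunits of the machinery of oxidative phosphorylation (OXPHOS). The mt-nd genes encode subunits of complex I (NADH dehydrogenase), mt-cyb cytochrome b of complex III, the mt-co genes the catalytic core of complex IV (cytochrome c oxidase), and mt-atp6 and mt-atp8 subunits of complex V (ATP synthase). Complex II and all remaining subunits come from nuclear genes, so every other complex mixes products of both genomes. Each strand is copied into a long precursor that is cut apart at the transfer RNAs lying between the genes, and the mature messengers then differ in how long they last. In vertebrates mt-nd6 is the protein gene encoded on the opposite strand to all the others.

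Along the RefSeq map the protein genes lay in the order mt-nd1, mt-nd2, mt-co1, mt-co2, mt-atp8, mt-atp6, mt-co3, mt-nd3, mt-nd4l, mt-nd4, mt-nd5, mt-nd6 and mt-cyb. The annotation overlaps mt-atp8 with mt-atp6, mt-atp6 with mt-co3, mt-nd4l with mt-nd4, and mt-nd5 with mt-nd6, the last pair on opposite strands. Reads were counted in union mode, in which a read lying in both genes of a same-strand pair goes to neither. Values of mt-atp8, mt-atp6, mt-co3, mt-nd4l and mt-nd4 are therefore partial counts of those genes. The annotation also overlaps mt-nd2, mt-co3 and mt-nd3 each with a transfer RNA gene. Their counts may be partial for that reason too, and the reads lost there were not measured.

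Libraries held 12480715 to 23022236 counted reads, of which 206088 to 857609 lay on the 13 genes. The least counted member, mt-atp8, had at least 499 reads in every library, and the most counted, mt-co1, reached 356730. All 13 passed the filter on low counts in every comparison. Summed markers of neurons stood at 6444 to 8114 CPM (counts scaled to a common library size) in the 9 brain libraries and at 795 to 1112 CPM in DMSO embryos. Skeletal muscle markers summed to 11990 to 15610 CPM in DMSO embryos, 9727 to 9913 CPM in DMSO larvae and 6.71 to 469 CPM in brain, so the whole animals and the dissected brains differed as labelled. In such bulk samples fewer cells of a type and less RNA per cell cannot be told apart, and neither can the number of mitochondrial genomes and the activity of each.

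The genes of complex IV took the most reads at every age. In DMSO libraries mt-co1 took 37.4% to 38.9% of them in embryos, 38.1% to 39.0% in larvae and 38.2% to 42.8% in brain. Next came mt-co3, with 18.1% to 18.8% in embryos and 16.8% to 17.9% in brain. At the other end mt-atp8 held 0.174% to 0.221% in embryos and mt-nd4l 0.405% to 0.450%. These are shares of reads and not of molecules, because gene lengths on the build of the files were not used.

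The share of counted reads on the 13 genes was higher in DMSO larvae than in DMSO embryos and highest in DMSO brains. In DMSO embryos it was 1.68%, 1.67% and 1.61% in replicates 1 to 3. In DMSO larvae it was 2.26%, 2.22% and 2.34%, and in DMSO brains 3.32%, 4.37% and 4.03%. No library of a later stage fell within the range of an earlier one, and the 3 brains were the most uneven. Reads on 86 nuclear OXPHOS genes did not follow: they made up 0.909% to 0.942% of reads in DMSO embryos, 0.928% to 0.981% in larvae and 0.823% to 0.921% in brain. The number of mitochondrial reads per nuclear OXPHOS read was thus 1.80 ± 0.0712 (SD, n = 3) in embryos, 2.39 ± 0.131 in larvae and 4.57 ± 0.672 in brains.

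**Figure D1:**
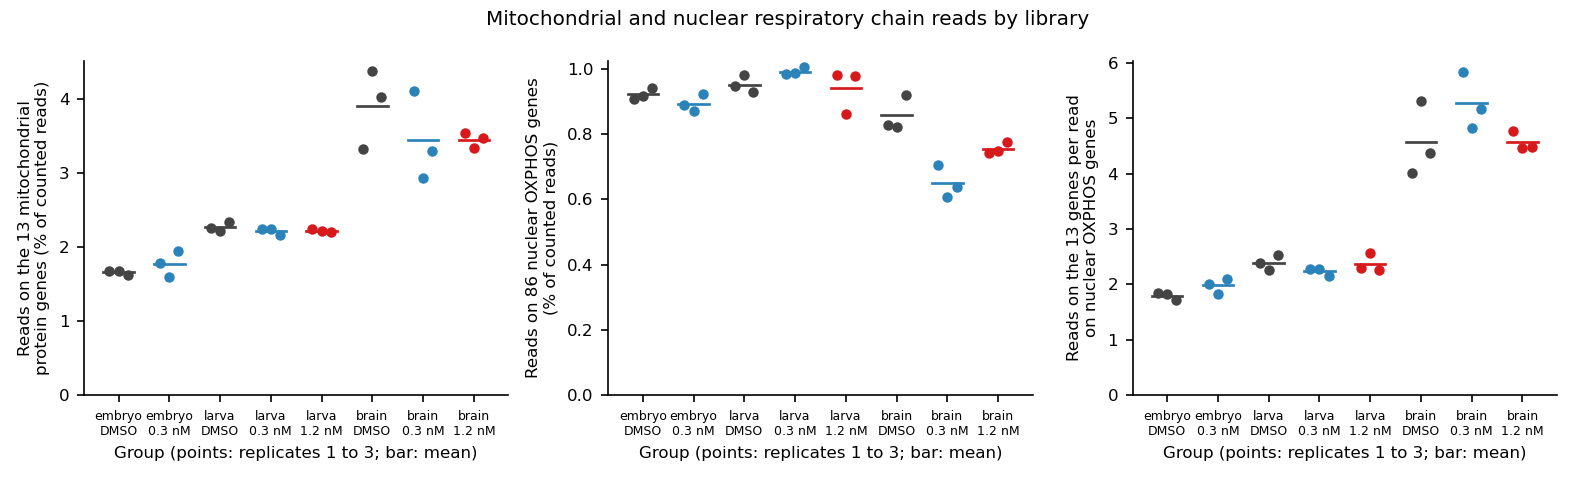
Reads on the 13 mitochondrial protein genes (left) and on 86 nuclear OXPHOS genes (middle) as a percentage of counted reads, and the ratio of the 2 sums (right), by group. Points are libraries and bars are means of 3; the mitochondrial share steps up from about 1.66% in DMSO embryos to 2.27% in DMSO larvae and 3.91% in DMSO brains, while exposed and DMSO groups of each age overlap in it.

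Between DMSO embryos and DMSO larvae the transcripts of all 4 kinds of complex with mitochondrial subunits rose moderately. In a fit of all 24 libraries with edgeR's quasi-likelihood test, 10 of the 13 genes were higher in larvae at an adjusted p under 0.05 over all genes (called, below) and none lower, where 32.3% of all 22545 genes tested were called higher. Of all genes 63.7% were called in either direction. The median log2 fold change of the 13 was 0.32, against 0.004 over all genes. The largest change was that of mt-atp8, an accessory subunit of ATP synthase. Its CPM, scaled over all 24 libraries, were 34.9, 37.2 and 29.9 in embryos and 59.4, 54.5 and 59.7 in larvae, with no overlap. Its log2 fold change was 0.77 (SE 0.14, adjusted p = 6.8e-05). The next by p was mt-nd4, a core membrane subunit of complex I, at 0.42 (SE 0.09, adjusted p = 0.000242). The 3 genes not called were mt-nd1 at 0.18, mt-co2 at 0.30 and mt-nd3 at 0.26. Of these, mt-co2 was called by DESeq2 (0.37, adjusted p = 0.0313) and by edgeR with RLE scaling factors (0.37, adjusted p = 0.0451). Without larva replicate 3, mt-nd6 (log2 fold change 0.15, adjusted p = 0.269) and mt-cyb (0.28, adjusted p = 0.0777) were not called either.

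Between DMSO larvae and DMSO brains all 13 genes were called higher in brain, where 39.9% of all genes were and 77.4% were called in either direction. The median log2 fold change of the 13 was 0.84 against 0.06 over all genes. With the scaling factors of DESeq2 the median of all genes moved by -0.140 for this pair of groups, to -0.080, and the median of the 13 to 0.70. The largest changes belonged to complex I: mt-nd3 at 1.20 (SE 0.18) and mt-nd5, a core proton-pumping subunit, at 1.01 (SE 0.09, adjusted p = 1.39e-10). For mt-nd5 the CPM were 443, 453 and 425 in larvae and 820, 978 and 869 in brains. The brain values of mt-nd5 lay far above every larval value. The smallest change was that of mt-nd6, the complex I subunit from the opposite strand, at 0.26 (SE 0.11, adjusted p = 0.0434). Its CPM of 230.2, 215 and 294 in larvae overlapped those of 274, 271 and 336 in brains. The mt-nd6 call did not survive the other scaling (log2 fold change 0.11, adjusted p = 0.364), the fit without a low-count filter (0.18, adjusted p = 0.169) or leaving out larva replicate 1 (0.22, adjusted p = 0.119), larva replicate 2 (0.18, adjusted p = 0.185) or brain replicate 3 (0.16, adjusted p = 0.206).

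From DMSO embryos to DMSO brains the median log2 fold change of the 13 was 1.26 against -0.01 over all genes. All 13 were called higher, where 39% of all genes were and 78.8% were called in either direction. The CPM of mt-co1, the oxygen-reducing subunit of complex IV, went from 6331 to 6690 in embryos to 15106 to 17170.0 in brains, a log2 fold change of 1.34 (SE 0.12, adjusted p = 2.73e-10). The other changes ran from 0.55 (SE 0.11) for mt-nd6 to 1.46 (SE 0.18) for mt-nd3. In the share each gene held of the 13 genes' reads, mt-nd6 went from 1.01% to 1.27% in embryos down to 0.613% to 0.815% in brains and mt-nd1 from 4.03% to 4.45% down to 2.76% to 3.26%. Over the same span the share of mt-nd3 went from 1.36% to 1.53% up to 1.59% to 1.83%. The brains differ from the whole animals in tissue, age and extraction method together, and these cannot be told apart.

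**Figure D2:**
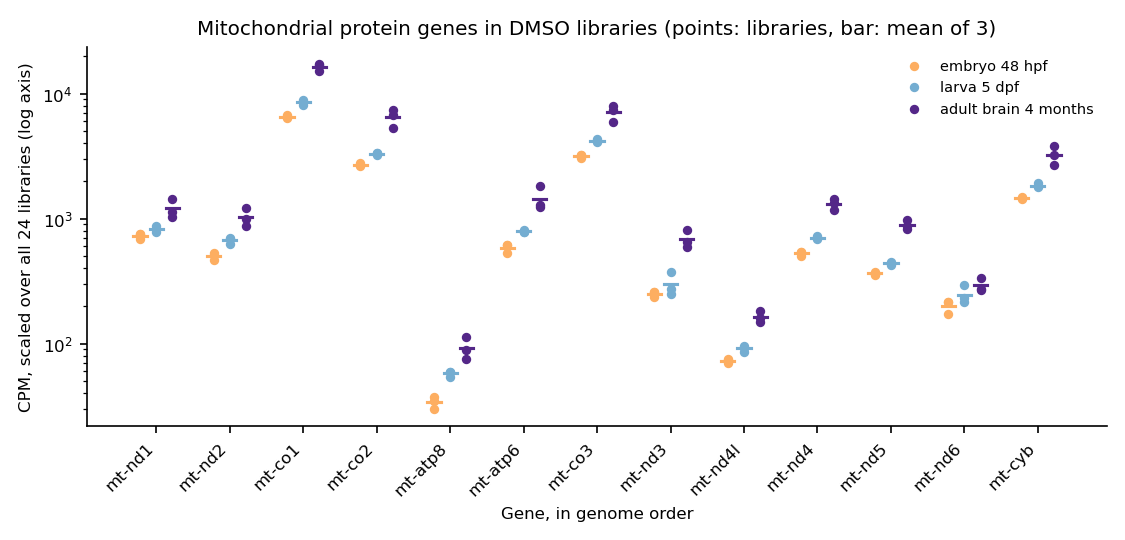
CPM of the 13 mitochondrial protein genes in the DMSO libraries of embryos, larvae and adult brain, in genome order, on a log axis, scaled over all 24 libraries. Points are libraries and bars means of 3; brain means lie highest for every gene, and for mt-nd6 the brain libraries (271 to 336) overlap the larval ones (215 to 294).

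The nuclear partners moved less evenly between the DMSO groups. Of 86 nuclear OXPHOS genes, 12 were called higher and 29 lower in DMSO larvae than in embryos, 26 higher and 21 lower in brains than in larvae, and 15 higher and 30 lower in brains than in embryos. Of all genes, 31.4%, 37.5% and 39.8% were called lower and 32.3%, 39.9% and 39% higher in these pairs. The nuclear genes were thus not called lower much more often than genes in general, and they were called higher less often in each pair. In brains against larvae and in brains against embryos they were also called lower less often. By complex, nuclear subunits of complex V were called lower in 11 of 16 cases and higher in 1 in brains against embryos, whereas mt-atp8 of the same complex was higher by 1.44 on the log2 scale. All 4 succinate dehydrogenase genes called, of 5 in complex II, which has no mitochondrial subunit, were higher in that pair. These splits moved with scaling: DESeq2 called 17 lower in larvae than in embryos, 28 in brains than in larvae and 34 in brains than in embryos. The count of 29 lower in larvae was 7 without embryo replicate 3 and 19 without larva replicate 1, and the count of 21 lower in brains than in larvae was 14 without brain replicate 2. Calls over all genes in either direction changed from 14350 to 13064 and 13313, and from 17449 to 16999. By DESeq2 they were 13880, 16892 and 17569 in these pairs.

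The factors that copy and mature these transcripts moved in both directions between the DMSO groups. In larvae against embryos, 5 of 19 genes of mitochondrial DNA transcription and replication were called higher and 2 lower, 7 of 20 genes of mitochondrial RNA processing, stability and decay higher and 1 lower, and 7 of 12 regulators of mitochondrial biogenesis higher and 4 lower. Of all genes 32.3% were called higher and 31.4% lower in that pair. In brains against larvae the lists had 5 higher and 6 lower, 4 higher and 7 lower, and 4 higher and 3 lower, beside 39.9% and 37.5% of all genes. TFAM, which packages mitochondrial DNA and helps start its transcription, was called lower in larvae than in embryos (log2 fold change -0.30, SE 0.09, adjusted p = 0.00578) and in brains than in embryos (-0.50, SE 0.09, adjusted p = 2.02e-05). POLRMT, the mitochondrial RNA polymerase, was called higher in larvae than in embryos (0.39, SE 0.10) and lower in brains than in larvae (-0.58, SE 0.10, adjusted p = 8.85e-06). Of 19 genes of mitochondrial DNA transcription and replication, 6 were called higher and 3 lower in brains against embryos, where 39% of all genes were called higher and 39.8% lower. Among them TK2, which makes nucleotides for mitochondrial DNA, rose by 1.11 (SE 0.11) and PRIMPOL, a primase and polymerase, fell by 2.83 (SE 0.16) on the log2 scale. Of 20 genes of mitochondrial RNA processing, stability and decay, 6 were higher and 4 lower. REXO2, which degrades short RNAs, rose by 0.87 (SE 0.11). Of 12 regulators of mitochondrial biogenesis, 6 were higher and 6 lower. The coactivator gene ppargc1b rose by 1.70 (SE 0.07, adjusted p = 2.89e-16), while NRF1, a transcription factor for nuclear OXPHOS genes, fell by 0.93 (SE 0.08).

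In embryos at 48 hpf the mitochondrial total was more uneven after 0.3 nM PCB126 than in the controls. The share of reads was 1.78%, 1.59% and 1.94% after exposure, beside 1.61% to 1.68% in DMSO. Of the exposed libraries 2 lay above the DMSO range and 1 below it. Its mean was 1.77% ± 0.176 (SD, n = 3) against 1.66% ± 0.0358, a log2 difference of 0.09 that did not pass an exact two-sided permutation test (p = 0.4, adjusted 0.5 over 10 such tests). With 3 libraries against 3 the smallest p this test can give is 0.1. The test does not pair libraries by replicate number, although same-numbered embryo libraries deviated together (correlations 0.288 to 0.396). The ratio to nuclear OXPHOS reads, 1.98 ± 0.142 against 1.80 ± 0.0712, also overlapped (exact permutation p = 0.3, adjusted 0.5).

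Of the 13 genes none was called in exposed embryos by edgeR or by DESeq2, where 0.00987% of 20265 genes were called by edgeR. Of all genes 525 had an unadjusted p under 0.05, and of the 13 genes 1 did. That gene was mt-atp8, at 34.2, 36.4 and 29.2 CPM (scaled within the age from here on) in DMSO and 43.4, 44.97 and 41.9 CPM after exposure. All exposed libraries lay above the controls. The log2 difference was 0.38 (SE 0.10, adjusted p = 0.9999 by edgeR). Along with mt-nd3, mt-nd4 and mt-nd6 it made 4 genes whose exposed libraries were all higher, a pattern that 3.84% of all genes showed. Relative to the reads on the 13 genes, every member overlapped between exposed and DMSO embryos. There mt-atp8 held 0.216% to 0.290% after exposure and 0.174% to 0.221% in DMSO. The median log2 difference of the 13 was 0.09 and that of all genes 0.003. None of the 86 nuclear OXPHOS genes and none of the genes of the 3 lists of transcription, RNA processing and biogenesis was called by edgeR. An unadjusted p under 0.05 was found for 0 of the nuclear OXPHOS genes and 2 of the RNA processing genes, and DESeq2 called 0 nuclear OXPHOS genes lower. TFAM differed by -0.08 (SE 0.11) and POLRMT by 0.04 (SE 0.11).

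In larvae at 5 dpf the mitochondrial total was held within narrow bounds in every group. The share of reads was 2.24%, 2.24% and 2.16% at 0.3 nM and 2.25%, 2.21% and 2.20% at 1.2 nM, beside 2.22% to 2.34% in DMSO. The log2 differences from DMSO were -0.04 and -0.03, with overlap (exact permutation p = 0.4 and 0.2, each adjusted to 0.5). The ratio to nuclear OXPHOS reads was 2.23 ± 0.0694 at 0.3 nM and 2.37 ± 0.170 at 1.2 nM against 2.39 ± 0.131 in DMSO (exact permutation p = 0.3 and 0.9). Replicates of one larval group differed little: the median within-group SD of the 13 genes on the log2 scale was 0.0655, against 0.141 over all genes tested.

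None of the 13 genes was called in larvae at 0.3 nM or 1.2 nM by edgeR or DESeq2. By edgeR 0 and 0.046% of 21719 genes were called. Of all genes 1034 at 0.3 nM and 1472 at 1.2 nM had an unadjusted p under 0.05. Of the 13 genes 2 did at each dose. These were the adjoining genes of ATP synthase. For mt-atp8 the CPM were 60.9, 55.8 and 61.3 in DMSO, 48.4, 37.6 and 34.2 at 0.3 nM and 41.2, 42.4 and 53.7 at 1.2 nM. All 6 exposed libraries lay below all 3 controls. The log2 differences were -0.56 (SE 0.13, adjusted p = 0.797) at 0.3 nM and -0.37 (SE 0.13, adjusted p = 0.671) at 1.2 nM by edgeR. For mt-atp6, a proton channel subunit, the CPM were 835, 806 and 801 in DMSO, 692, 673 and 754 at 0.3 nM and 705, 677 and 741 at 1.2 nM. Again no exposed library reached a control, and the log2 differences were -0.20 at both doses (SE 0.06, adjusted p = 0.995 and 0.564 by edgeR). The comparisons at both doses share the DMSO libraries. These were also read less deeply than every exposed larval library. Total reads were 12480715 to 14932821 in DMSO, 15564323 to 18668231 at 0.3 nM and 16831991 to 20662041 at 1.2 nM. The part of depth in these differences was not tested.

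At 0.3 nM, mt-nd4 and mt-nd5 also lay below every control, which makes 4 of 13 genes at that dose and 2 at 1.2 nM. Of all genes tested, 5.51% and 6.1% had no overlap in that direction. Relative to the reads on the 13 genes, mt-atp8 was fully lower at 0.3 nM, where 3.6% of all genes were. At 1.2 nM mt-atp8 and mt-atp6 were fully lower (4.16% of all genes) and mt-co2 and mt-co3 fully higher (7.99%). For the most heavily read members the intervals were narrow: the 95% interval of the log2 difference of mt-co1 ran from -0.13 to 0.12 at 0.3 nM and from -0.14 to 0.11 at 1.2 nM, and that of mt-cyb from -0.11 to 0.13 and from -0.17 to 0.08. Between 1.2 nM and 0.3 nM none of the 13 was called, where edgeR called 0.023% of genes. None of the 13 had an unadjusted p under 0.05, where 993 of 21719 genes did. None was free of overlap in CPM, where 5% of genes lay fully higher and 4.71% fully lower. Relative to the reads on the 13 genes mt-cyb was fully lower, at 8.09% to 8.32% against 8.43% to 8.68%. The share of all genes lower in that measure is not given here. None of the nuclear OXPHOS genes or of the genes of the 3 lists was called by edgeR at either dose. Of the nuclear OXPHOS genes 4 at 0.3 nM and 2 at 1.2 nM had an unadjusted p under 0.05. Of all 21719 genes 1034 and 1472 did. DESeq2 called 0 nuclear OXPHOS genes lower. TFAM differed by 0.04 and -0.11 and POLRMT by -0.11 and -0.23 at 0.3 nM and 1.2 nM.

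**Figure D3:**
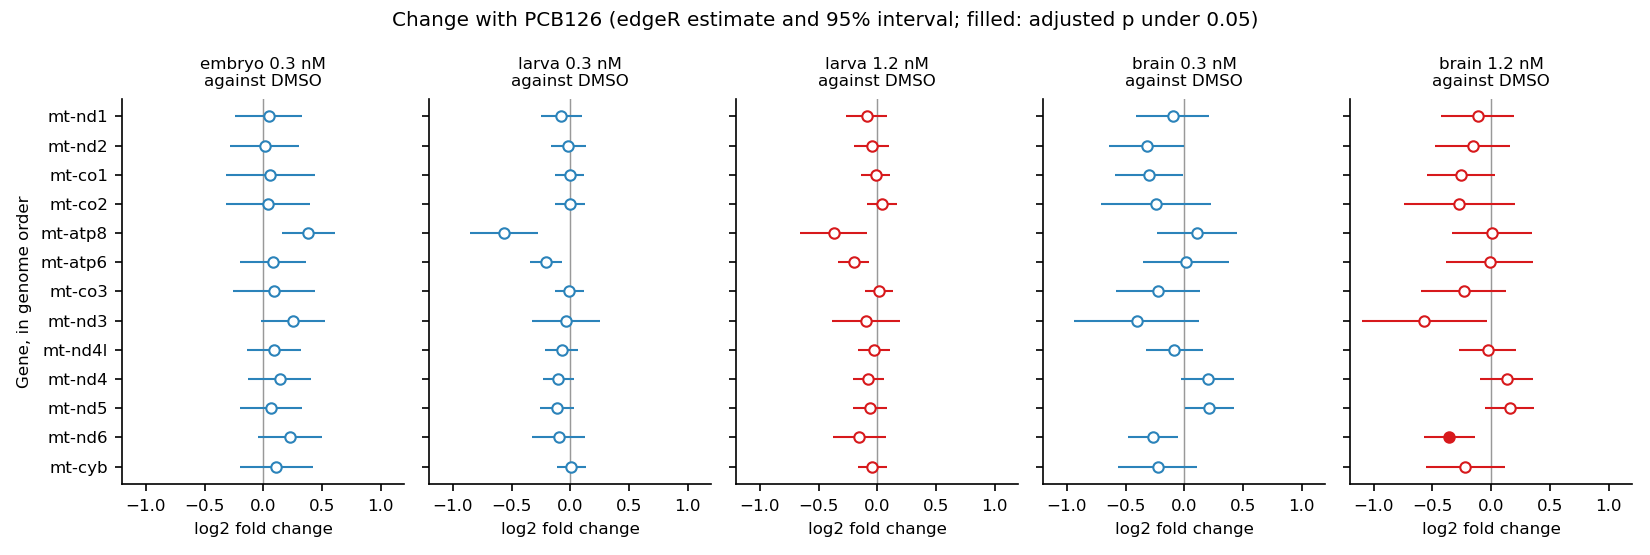
Log2 fold change of each mitochondrial protein gene, in genome order, for each exposed group against the DMSO group of its age, with the 95% interval from edgeR. The filled point is the only call, mt-nd6 at 1.2 nM in brain (-0.36); in larvae mt-atp8 and mt-atp6 lie farthest below 0, and in brain mt-nd4 and mt-nd5 lie above 0 while most others lie below it.

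In the adult brain, months after exposure, the mitochondrial total again overlapped among the groups. The share of reads was 4.10%, 2.93% and 3.29% at 0.3 nM and 3.54%, 3.34% and 3.47% at 1.2 nM, beside 3.32% to 4.37% in DMSO. Libraries of DMSO and of 0.3 nM were spread widely and those of 1.2 nM narrowly. The log2 differences from DMSO were -0.19 and -0.17 (exact permutation p = 0.4 for both, adjusted 0.5). The median within-group SD of the 13 genes on the log2 scale was 0.213 here, above the 0.169 of all genes tested. At this spread the 95% interval of single genes was wide, running for mt-co2 from -0.71 to 0.23 at 0.3 nM.

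No mitochondrial gene was called in brain at 0.3 nM by edgeR or DESeq2, where edgeR called 13.7% of 19548 genes (5.9% were called lower). An unadjusted p under 0.05 was found for 4 of the 13 and for 5906 of the 19548 genes, a similar share. At 1.2 nM, 1 of 13 was called, lower, where 9.05% of all genes were called and 3.36% were called lower. At that dose 2 of the 13 and 5445 of the 19548 genes had an unadjusted p under 0.05, a lower share among the members. The median log2 difference of the 13 was -0.22 at 0.3 nM and -0.16 at 1.2 nM, against -0.02 and -0.03 over all genes. Members fully below the DMSO range numbered 1 at 0.3 nM and 3 at 1.2 nM, where 16.3% and 17.2% of all genes were.

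The called gene was mt-nd6, whose product is a membrane subunit of complex I. Its CPM were 269, 271 and 329 in DMSO, 231, 267 and 223 at 0.3 nM and 219, 229.8 and 231 at 1.2 nM. All 6 exposed brains lay below all 3 controls, by a small margin for replicate 2 at 0.3 nM. Both doses were compared with the same 3 DMSO brains, here and in the brain results below. The log2 difference was -0.36 (SE 0.10, 95% interval -0.57 to -0.14, adjusted p = 0.0464 by edgeR) at 1.2 nM and -0.27 (SE 0.10, adjusted p = 0.0913) at 0.3 nM. The call at 1.2 nM was lost on leaving out DMSO replicate 1 (-0.40, adjusted p = 0.0692), DMSO replicate 3 (-0.25, adjusted p = 0.110) or exposed replicate 1, 2 or 3 (-0.33, -0.36 and -0.37, adjusted p = 0.156, 0.116 and 0.122). With replicate number as a block the difference was -0.35 (adjusted p = 0.0721). Calls over all genes fell as well, from 1769 to 462 and 530 without DMSO replicates 1 and 3. They were 38, 44 and 13 without exposed replicates 1, 2 and 3, and 1027 with the block. The estimate for mt-nd6 stayed below 0 in each of these fits. The share of mt-nd6 in the 13 genes' reads overlapped between DMSO and exposed brains. That share was 0.613% to 0.815% in DMSO, 0.554% to 0.929% at 0.3 nM and 0.625% to 0.685% at 1.2 nM.

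A larger and more uneven difference was that of mt-nd3, a small complex I subunit. Its CPM were 582, 812 and 640.2 in DMSO, 732, 389 and 417 at 0.3 nM and 449, 475 and 448 at 1.2 nM. Every 1.2 nM library lay below the controls, while replicate 1 at 0.3 nM lay among them. The log2 difference was -0.57 (SE 0.23, adjusted p = 0.156 by edgeR) at 1.2 nM and -0.40 (SE 0.23, adjusted p = 0.284) at 0.3 nM. At 1.2 nM it was called when only the DMSO and 1.2 nM libraries were fitted (-0.58, adjusted p = 0.0293) or when all 24 were (-0.57, adjusted p = 0.0373). Without replicate 1 at 0.3 nM it was called there (-0.75, adjusted p = 0.00894). Calls over all genes were 1842, 3435 and 3057 in these fits. In the main fit they were 1769 at 1.2 nM and 2683 at 0.3 nM.

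Of complex IV, mt-co1 stood at 14840.0, 16919 and 16784 CPM in DMSO, 15888, 11513 and 12021 at 0.3 nM and 13527, 14298 and 12878 at 1.2 nM. Replicate 1 at 0.3 nM again lay among the controls and the rest below them. The log2 differences were -0.30 (SE 0.13, adjusted p = 0.151) and -0.25 (SE 0.13, adjusted p = 0.232) by edgeR. Without that replicate mt-co1 was called at 0.3 nM (-0.46, adjusted p = 0.0248). The remaining complex IV genes and mt-cyb differed by -0.22 to -0.27 at either dose, uncalled and with overlap. Of complex I, mt-nd2 differed by -0.32 (SE 0.15, adjusted p = 0.165 by edgeR) at 0.3 nM, more than mt-co1. At 1.2 nM it differed by -0.16 (SE 0.14, adjusted p = 0.518 by edgeR). For mt-nd1 the log2 differences were -0.10 and -0.12 (SE 0.14 for each), uncalled.

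Within the mitochondrial reads of the brain, mt-nd4 and mt-nd5 held a larger share in exposed than in DMSO libraries. The genes of these complex I subunits are neighbours among the protein genes of the map, with other genes between them. Of the 13 genes' reads mt-nd4 held 3.33%, 3.25% and 3.22% in DMSO, 3.96%, 5.13% and 4.22% at 0.3 nM and 4.18%, 4.11% and 4.17% at 1.2 nM. For mt-nd5 the shares were 2.32%, 2.21% and 2.11% in DMSO, 2.68%, 3.38% and 3.03% at 0.3 nM and 2.73%, 2.94% and 2.90% at 1.2 nM. Neither gene overlapped between DMSO and exposed brains, and the comparisons at both doses share the DMSO brains. The DMSO brains lay close to embryos and larvae of all groups, in which mt-nd4 held 2.84% to 3.57% and mt-nd5 1.75% to 2.22%.

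Relative to the reads on the 13 genes, 2 members were fully higher at 0.3 nM, where 12.5% of all genes were, and 3 at 1.2 nM, mt-nd4l being the third, where 29.2% of all genes were. The members' counts are near or below these shares, so nothing particular to them is read from the counts. At 1.2 nM mt-nd3 was fully lower, at 1.28% to 1.42% against 1.59% to 1.83%, where 3.07% of all genes were. In CPM the differences of mt-nd4 were 0.20 (SE 0.10) and 0.13 (SE 0.10) on the log2 scale and those of mt-nd5 0.21 (SE 0.09) and 0.16 (SE 0.09), all uncalled by edgeR (adjusted p = 0.218, 0.434, 0.152 and 0.305). The genes were singled out after their values had been seen, and a share of a fixed total moves when any other member does.

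**Figure D4:**
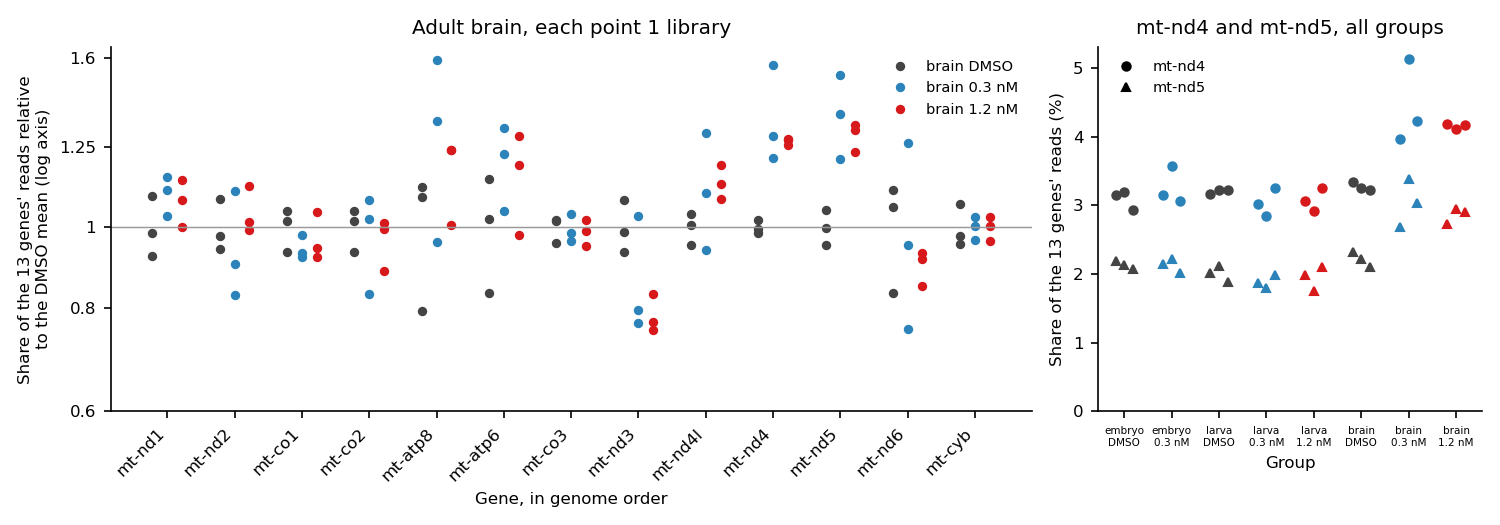
Share of each gene in the reads of the 13 genes. Left, adult brain, each library relative to the DMSO mean on a log axis, in genome order; right, mt-nd4 and mt-nd5 as a percentage in all 8 groups, where the 6 exposed brains lie above the 3 DMSO brains (3.96% to 5.13% against 3.22% to 3.33% for mt-nd4).

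The nuclear partners of these genes were lower in the exposed brains. At 0.3 nM, 71 of 86 nuclear OXPHOS genes were called lower and none higher, with a median log2 difference of -0.49. At 1.2 nM, 21 were called lower and none higher, with a median of -0.31. Of all 19548 genes tested, 5.9% and 3.36% were called lower at these doses, with medians of -0.02 and -0.03. By complex, calls at 0.3 nM covered 33 of 38 nuclear genes of complex I, 4 of 5 of complex II, 6 of 9 of complex III, 14 of 18 of complex IV and 14 of 16 of complex V. Examples were NDUFA6 of complex I at -0.73 (SE 0.11), COX7A2 of complex IV at -0.88 (SE 0.09) and atp5mf of complex V at -0.63 (SE 0.08). The count at 0.3 nM was 47 without DMSO replicate 3, 30 without exposed replicate 2 and 34 without exposed replicate 3. Calls over all genes fell there too, from 2683 to 1418, 960 and 971. At 1.2 nM the nuclear OXPHOS count was 4 without DMSO replicate 1 or 3 and 0 without exposed replicate 1, 2 or 3. With a replicate block it was 10, and by DESeq2 it was 40. It was 38 to 40 in fits of only the DMSO and 1.2 nM libraries or of all 24. Calls over all genes were 1769 in the main fit and 462 and 530 without those DMSO replicates. They were 38, 44 and 13 without exposed replicates 1, 2 and 3, and 1027 with the block. In the fits of the DMSO and 1.2 nM libraries and of all 24 they were 1842 and 3435, and by DESeq2 2715.

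The difference between both genomes was measured as the ratio of their reads. Nuclear OXPHOS genes took 0.829%, 0.823% and 0.921% of reads in DMSO brains, 0.704%, 0.608% and 0.638% at 0.3 nM and 0.742%, 0.747% and 0.775% at 1.2 nM, with no overlap. Mitochondrial reads per nuclear OXPHOS read were 4.01, 5.31 and 4.37 in DMSO, 5.83, 4.82 and 5.16 at 0.3 nM and 4.78, 4.47 and 4.48 at 1.2 nM, which overlap. The log2 difference of the ratio was 0.21 at 0.3 nM (exact permutation p = 0.3, adjusted 0.5) and 0.01 at 1.2 nM (exact permutation p = 0.8, adjusted 0.889). With a smallest possible p of 0.1, this test could not pass 0.05 for any ratio and does not decide whether the balance changed.

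**Figure D5:**
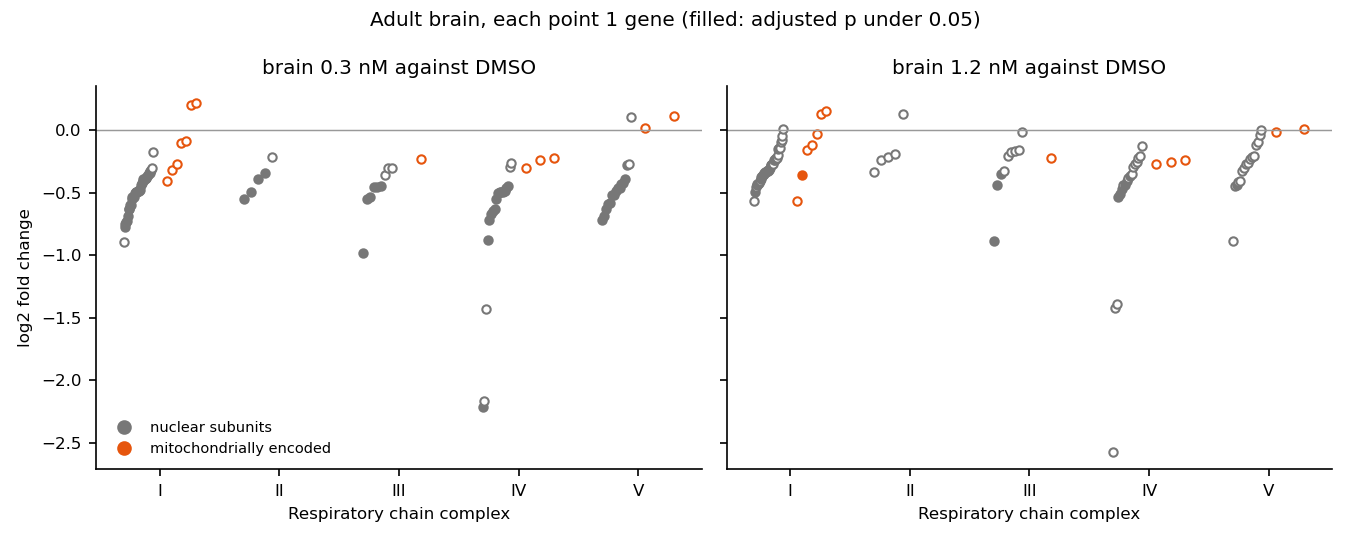
Log2 fold change in exposed against DMSO adult brains of nuclear subunits (grey) and mitochondrially encoded subunits (orange) of complexes I to V, each point 1 gene, filled where the adjusted p is under 0.05. Nuclear subunits lie mostly between 0 and -1, with 71 of 86 called lower at 0.3 nM and 21 at 1.2 nM, while mitochondrial ones straddle 0 with 1 call. Of all genes tested, 5.9% were called lower at 0.3 nM and 3.36% at 1.2 nM.

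Several other measures moved with exposure in brain, and their part in these results was not tested. The DMSO brains were the most deeply read, at 19498374 to 23022236 reads against 13097392 to 18043641 in exposed brains. The signal recognition particle RNA rn7sl1 took 6.998% to 9.60% of reads in DMSO, 4.76% to 6.36% at 0.3 nM and 4.96% to 6.10% at 1.2 nM. Among glia, the 8 markers of radial glia and astroglia summed to 4148 to 4519 CPM in DMSO, 3557 to 3874 CPM at 0.3 nM and 3297 to 3676 CPM at 1.2 nM. The 3 markers of microglia, the immune cells of the brain, summed to 175.8 to 233 CPM, 89.7 to 173 CPM and 136 to 148 CPM. Both sets lay below every DMSO brain at both doses. The 6 markers of oligodendrocytes, the myelin-forming glia, summed to 10210 to 14900 CPM in DMSO, 7324 to 8789 CPM at 0.3 nM and 8188 to 10260 CPM at 1.2 nM, the last overlapping DMSO. Markers of tissues around the brain were low and lower still after exposure. The 7 of skeletal muscle summed to 31.8 to 469 CPM in DMSO, 19.2 to 31.5 CPM at 0.3 nM and 6.71 to 30.2 CPM at 1.2 nM. The 6 of cartilage and bone summed to 45.3 to 219.9 CPM, 23.9 to 34.8 CPM and 27.3 to 39.9 CPM, and the 3 of skin to 31.6 to 71.0 CPM, 18.9 to 26.7 CPM and 12.5 to 23.6 CPM. Heart muscle markers also lay below DMSO at both doses, and red blood cell markers did at 0.3 nM. Endothelial and liver markers overlapped DMSO at both doses. Those of neurons overlapped between DMSO and 0.3 nM, at 6444 to 7751 CPM and 6893 to 7705 CPM. At 1.2 nM they were 7776 to 8114 CPM, above every DMSO brain by a small margin.

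Few genes that act on mitochondrial transcripts were called in the exposed brain. None of 19 genes of mitochondrial DNA transcription and replication was called at either dose; TFAM differed by -0.08 (SE 0.10) and -0.10 (SE 0.10) and POLRMT by 0.01 (SE 0.09) and -0.07 (SE 0.09). Of 20 RNA processing, stability and decay genes, 3 were called at 0.3 nM and none at 1.2 nM, where 13.7% and 9.05% of all genes were, so the count at 0.3 nM was near that of genes in general. At 1.2 nM 3 had an unadjusted p under 0.05, as did 5445 of all 19548 genes. SLIRP, which with LRPPRC protects mitochondrial messengers from decay in mammals, fell by 0.39 (SE 0.09, adjusted p = 0.0243). HSD17B10, a subunit of the mitochondrial ribonuclease P that cuts out transfer RNAs in mammals, fell by 0.35 (SE 0.09, adjusted p = 0.0311). FASTKD1, of a family of mitochondrial RNA-binding proteins, rose by 0.47 (SE 0.14, adjusted p = 0.046). Each of these calls was lost on leaving out any of several libraries, with an adjusted p up to 0.0762 for SLIRP, 0.0986 for HSD17B10 and 0.135 for FASTKD1, and those of HSD17B10 and FASTKD1 were lost with a replicate block (0.0547 and 0.0571). In a fit of only the DMSO and 0.3 nM libraries the calls of SLIRP and HSD17B10 were lost (adjusted p = 0.0537 and 0.0642 by edgeR). Calls over all genes were 2683 in the main fit, 2007 with the block and 1310 in the fit of those libraries alone. They were 960 to 1427 without DMSO replicate 1 or 3 or exposed replicate 2 or 3. Without DMSO replicate 2 and exposed replicate 1 they were 2853 and 3057. Of these 3 calls only that of FASTKD1 was lost there.

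Regulators of mitochondrial biogenesis were higher where called. Of 11 tested, 2 were called at 0.3 nM and 3 at 1.2 nM, all higher, where 7.82% and 5.69% of all genes were called higher. PPARGC1A, the coactivator PGC-1alpha that drives mitochondrial biogenesis in mammals, rose by 0.67 (SE 0.14, adjusted p = 0.0135) at 0.3 nM and by 0.52 (SE 0.14, adjusted p = 0.0388) at 1.2 nM. NRF1 rose by 0.32 (SE 0.08, adjusted p = 0.0241) at 0.3 nM. PRKAA2, a catalytic subunit of the energy sensor AMPK, rose by 0.62 (SE 0.12, adjusted p = 0.0213) and ESRRA, a nuclear receptor that acts with PGC-1alpha in mammals, by 0.34 (SE 0.09, adjusted p = 0.0364) at 1.2 nM. The PPARGC1A call at 0.3 nM was lost only without exposed replicate 3 among libraries left out (0.55, adjusted p = 0.052), and at 1.2 nM on leaving out any library but DMSO replicate 2 (adjusted p up to 0.122) or with a replicate block (0.0629). The NRF1 call was lost without DMSO replicate 1 or 2 or exposed replicate 3 (adjusted p up to 0.0921). It was also lost in a fit of only the DMSO and 0.3 nM libraries (0.07125), where 1310 of all genes were called. That of ESRRA was lost without any single library (up to 0.128) or with a replicate block (0.0538), and that of PRKAA2 without DMSO replicate 3 or any exposed library (up to 0.0856). At 1.2 nM calls over all genes fell from 1769 to 13 to 530 when any library but DMSO replicate 2 was left out. They were 2263 without DMSO replicate 2 and 1027 with the block. At 0.3 nM they were 2683 in the main fit and 971 without exposed replicate 3. Without DMSO replicates 1 and 2 they were 1427 and 2853.

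Between 1.2 nM and 0.3 nM in brain none of the 13 was called, where edgeR called 0.0972% of genes. None of the 13 had an unadjusted p under 0.05, where 1885 of 19548 genes did. None was free of overlap in CPM or relative to the reads on the 13 genes. In CPM 8.87% of all genes lay fully higher and 8.56% fully lower. The largest log2 differences were -0.16 for mt-nd3 (SE 0.23) and 0.16 for mt-nd2 (SE 0.15).

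Whether an effect of exposure differed between brain and larvae was tested as an interaction in the fit of all 24 libraries. None of the 13 passed at either dose, where 5.71% of 22545 genes did at 0.3 nM and 1.49% at 1.2 nM. An unadjusted p under 0.05 was found for 3 of the 13 at 0.3 nM and none at 1.2 nM. Of all genes 5089 and 4392 had one, a similar share to that of the members at 0.3 nM. The nearest was mt-atp8 at 0.3 nM, with a difference of effects of 0.66 (SE 0.20, adjusted p = 0.0504 by edgeR), lower than DMSO in larvae and at 0.11 (SE 0.15) in brain. DESeq2 called 3 of the 13 at this dose, where it called 1989 of all genes and edgeR 1288. The adjusted p of mt-atp8 ran from 0.00761 without DMSO brain replicate 2 to 0.135 without DMSO brain replicate 3. For mt-nd5 and mt-nd4 the differences of effects were 0.31 (SE 0.12, adjusted p = 0.127) and 0.28 (SE 0.12, adjusted p = 0.168). Of the 86 nuclear OXPHOS genes, 63 passed at 0.3 nM, all with a lower effect in brain, where 3.03% of all genes did so. That count was 29 without DMSO brain replicate 3, 26 and 33 without exposed brain replicates 2 and 3, 36 and 40 without DMSO larva replicates 1 and 3, and 33 and 39 without exposed larva replicates 1 and 3. Calls over all genes fell too, from 1288 to 628, 619, 772, 656, 914, 540 and 861 in the same order. At 1.2 nM none passed, and 43 of the 86 had an unadjusted p under 0.05, where 4392 of 22545 genes did. DESeq2 called 8 of the 86 lower at that dose, and its calls over all genes are not given here.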

How the data were processed

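RNA of 24 zebrafish samples was sequenced (8 groups of 3, taken from the titles). The deposited files hold whole-number read counts per Ensembl gene; per the submitters' processing notes the authors used FastQC, STAR, HTSeq and the GRCz10 build, and edgeR is also named. Per the deposited file names, counting was by reverse strand in union mode; no versions are stated. Names came from the tables provided, for 26269 of 32105 rows; the RefSeq table is of another assembly (GRCz12tu) and served for names, gene order and overlaps only.

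Counts were tested in R 4.3.3 by the robust quasi-likelihood test of edgeR 4.0.16 after filterByExpr and TMM scaling, with Benjamini-Hochberg adjustment over all genes and a threshold of 0.05, each age fitted alone and ages compared in 1 fit of all 24 libraries. The method was tested on simulated data. A standard error is the log2 fold change divided by the root of F; intervals are at 95%. Shares and ratios of reads were compared by exact two-sided permutation on the log2 scale, adjusted over 10 tests. Alternatives were DESeq2 1.42.0, other scaling, filter, groups fitted, replicate block and each replicate left out. Ranges of total reads are in the report. The edgeR p-values set a difference between groups against the spread of libraries within the groups of the fit.

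Same-numbered libraries deviated together most clearly in embryos (correlations 0.288 to 0.396). The mean of other pairs there, -0.174, is no separate contrast, because deviations from a group mean sum to 0. Correlations were also above 0 between the doses in larvae (0.0742 to 0.269) and between DMSO and 0.3 nM in brain (0.0381 to 0.0721). The block in embryos changed no call of a member. No libraries of a group were alike within counting noise. All members are named; of nuclear list genes, called ones by smallest p, TFAM and POLRMT. Members and lists were chosen with earlier results of these data known.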

Additional observations from a re-analysis of the deposited data

How the results depend on the processing

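In brain at 1.2 nM the count of mitochondrial genes called, 1 as reported, was 0 with the replicate block, 2 in a fit of all 24 libraries, 2 in a fit of the DMSO and 1.2 nM libraries alone and 0 to 1 with single replicates left out. In brain at 0.3 nM it was 0 as reported and 0 to 2 with single replicates left out. The difference of the 0.3 nM effect between brain and larvae had 0 calls as reported, 1 with RLE factors, 1 with library sizes from nuclear genes, 3 with DESeq2 and 0 to 3 with single replicates left out. Calls over all genes varied too. In brain at 1.2 nM they were 1769 as reported and 13 to 3435 in these settings. At 0.3 nM they were 2683 and 960 to 3057. For the difference of effects they were 1288 and 540 to 2135. The cause was not tested. The log2 difference in the ratio to nuclear OXPHOS reads changed sign when single replicates were left out, from -0.07114 to 0.02746 in larvae at 1.2 nM and from -0.07643 to 0.1264 in brain at 1.2 nM. Counts of calls for the ages in DMSO were 8 to 10 for larvae against embryos, 12 to 13 for brain against larvae and 13 throughout for brain against embryos with single replicates left out. Of the alternative values for these results, 221 were classed as unchanged, 15 as moved and 6 as reversed. Unchanged meant the same sign for a share or ratio, and an equal or similar number for a count of calls. Single genes could still cross the threshold in a count classed as unchanged. The replicate block changed no other count of members called. Outside embryos, same-numbered libraries deviated together less clearly or not at all. A denominator without mitochondrial ribosomal and transfer RNA was not run, since those genes were not matched. One without rn7sl1, rn7sk and unnamed rows, chosen after seeing the data, gave log2 differences of the share of -0.229 at 0.3 nM and -0.228 at 1.2 nM in brain, with overlap. Reads on the least counted gene, mt-atp8, limit its precision, and 3 libraries a group limit all tests.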
